A study of Mus musculus with 3 samples.

Results

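Pancreatic stellate cells and fibroblasts are the connective tissue cells of the pancreas, and pericytes wrap its capillaries. In islets they are a small population beside the endocrine cells. The peaks of mixed islet cells are described here at 10 genes that mark them: the fibrillar collagen genes Col1a1, Col1a2 and Col3a1, the fibronectin gene Fn1, the platelet-derived growth factor (PDGF) receptor genes Pdgfra and Pdgfrb, the surface glycoprotein gene Thy1, and the contractile and pericyte genes Acta2, Des and Rgs5. They are 10 of the 22359 protein-coding genes of the annotation. All peaks overlapping the body of a member gene or the 20 kb on each side of it were taken from the 3 peak lists, which gave 21 of 60898 peaks in WT, 39 of 150354 in Taf4 KO at 1 week and 49 of 151725 in Taf4 KO at 5 weeks. The 10 loci together cover 713 kb.

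The libraries were made by ATAC-seq, in which a transposase inserts adapters into accessible DNA, on cells dissociated from purified mouse islets of Langerhans. Per the labels, all mice had the strain C5LBl6, and the genotypes were wild type (WT) and Taf4 KO, the latter sampled 1 or 5 weeks after inactivation. Taf4 encodes a subunit of TFIID, the general factor that recognizes core promoters. In the study, floxed Taf4 alleles were removed by a tamoxifen-inducible Cre driven by the Ins1 gene, and controls carried the same Cre, intact Taf4 and had tamoxifen too. Such a driver acts in beta cells, so stellate cells, fibroblasts and pericytes of the Taf4 KO mice are expected to keep Taf4. The sources used here do not give the number of mice behind each library, and their age is not stated in the labels. Each group was 1 library, so there was no replicate, no p-value was computed, and each difference described is a difference between libraries.

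Quiescent stellate cells store vitamin A and express desmin, and on injury they become myofibroblasts that express smooth muscle actin and deposit collagen and fibronectin. PDGF ligands, acting through the receptors encoded by Pdgfra and Pdgfrb, drive the growth of mesenchymal cells and recruit pericytes to vessels. An accessible promoter is needed for transcription but does not report its level, and many collagen and contractile genes are also controlled from distal elements.

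The Taf4 KO lists held about the same number of peaks as each other and far more than the WT list. Peak lists carry no read totals, so depth is unknown. A floor of the local background recovered from the fold and p of the peaks, which grows with read number, was 3.66 reads in WT, 6.45 reads at 1 week and 9.38 reads at 5 weeks. A deeper library lets weaker sites be called, and depth and genotype cannot be told apart in these libraries. Neither can a change in the number of stellate cells and a change in accessibility per cell. A peak that was not called in a list is therefore not evidence of closed chromatin. Each library was made from mixed islet cells, so the cell type behind a peak, endocrine or mesenchymal, is not known.

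Sequences of 3 promoters that differ in how the lists cover them, and of 2 distal sites, are given first, from mm9 and 5′ to 3′ on the strand of the gene. The Rgs5 promoter (chr1:171585382-171585631, plus strand) is shown because all of its 250 bases lay within a peak of each list. The Thy1 promoter (chr9:43851217-43851466, plus strand) lay within a 5 week peak alone, a weak one that is described with its values further on. The bases before the second annotated start of Pdgfra (chr5:75551941-75552190, plus strand) lay within the peaks at 1 and 5 weeks, while the WT peak began downstream of that start. The regions beyond the 3′ ends of Col1a2 (chr6:4502509-4502708, plus strand) and Des (chr1:75366987-75367186, plus strand) are the 200-base cores of sites found in all 3 lists, which had the highest percentiles at 5 weeks among sites away from promoters. Capitals mark a CCAAT box or a TATA box (TATAAA) on either strand.
Rgs5 promoter: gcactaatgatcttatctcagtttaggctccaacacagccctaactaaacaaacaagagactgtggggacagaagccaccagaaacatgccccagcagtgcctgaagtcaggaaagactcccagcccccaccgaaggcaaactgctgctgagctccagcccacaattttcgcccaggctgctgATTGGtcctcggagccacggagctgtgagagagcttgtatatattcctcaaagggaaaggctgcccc
Thy1 promoter: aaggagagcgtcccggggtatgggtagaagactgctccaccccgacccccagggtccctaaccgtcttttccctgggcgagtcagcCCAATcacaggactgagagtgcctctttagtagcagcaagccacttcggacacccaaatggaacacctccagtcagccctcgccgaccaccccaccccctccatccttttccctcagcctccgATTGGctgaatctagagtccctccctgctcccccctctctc
Pdgfra second promoter: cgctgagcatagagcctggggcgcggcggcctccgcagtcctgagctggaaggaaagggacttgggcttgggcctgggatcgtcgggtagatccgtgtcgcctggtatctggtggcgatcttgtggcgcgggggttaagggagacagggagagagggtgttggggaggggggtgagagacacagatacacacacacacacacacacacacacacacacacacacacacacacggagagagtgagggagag
Col1a2 downstream region: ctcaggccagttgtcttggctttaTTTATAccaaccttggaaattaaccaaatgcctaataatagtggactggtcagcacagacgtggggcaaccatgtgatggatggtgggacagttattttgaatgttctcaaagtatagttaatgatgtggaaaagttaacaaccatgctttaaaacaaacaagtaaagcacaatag
Des downstream region: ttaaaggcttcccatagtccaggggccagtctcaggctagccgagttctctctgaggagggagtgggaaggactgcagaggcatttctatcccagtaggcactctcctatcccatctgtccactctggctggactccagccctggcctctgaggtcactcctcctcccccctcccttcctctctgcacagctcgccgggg

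In the 250 bases before a start, the CCAAT box (CCAAT, both strands) was found for 5 of the 10 genes, namely Col1a1, Fn1, Pdgfrb, Thy1 and Rgs5, against 34.9% of 22354 promoters of the same length. The GC box (GGGCGG) was found for Col1a1, Col1a2, Fn1 and Des, against 41.1% of promoters. The TATA box was found for Col3a1 alone, against 12.2%. No match was found for the AP-1 site (TGANTCA), the FOX site (TGTTTAC) or the CArG box (CCWWWWWWGG, with W for A or T). Of all promoters, 5.89%, 2.63% and 1.32% held these. Sites that depart from these letters were not searched for, so the genes may hold such variants. Among 25602 regions of 200 bases shared by the 3 lists, a CCAAT box was in 21.6% and a TATA box in 7.05%. The printed promoter of Rgs5 held 1 CCAAT box and that of Thy1 held 2, and the printed Des region and second Pdgfra promoter held none of the 6 motifs. The Pdgfra bases hold a long run of CA repeats near the start. CpG dinucleotides were rare in most of these promoters, with an observed over expected ratio in the promoter window from 0.144 for Col3a1 to 0.598 for Fn1. Pdgfra (0.596) was close to Fn1, and Des was next at 0.432.

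The number of these genes with a promoter peak was 3, 4 and 7 in the lists of WT, 1 week and 5 weeks. A peak was counted at a promoter when it touched the window between 1000 bp before and 100 bp after an annotated start. In WT, 3 of the 10 genes had a promoter peak (Fn1, Pdgfra and Rgs5), against 59.0% of all protein-coding genes. At 1 week there were 4, the same genes and Col3a1, against 55.9%. At 5 weeks there were 7, namely Col1a2, Fn1, Pdgfra, Pdgfrb, Thy1, Des and Rgs5, against 65.6%. Of the 7 genes without a WT promoter peak, 1 had one at 1 week, where 13.3% of such genes did, and 4 had one at 5 weeks, where 18.9% did. None of the 3 WT promoter peaks was without a call in Taf4 KO, where 14.5% of genes lost theirs at 1 week and 1.89% at 5 weeks. Col1a1 and Acta2 had no promoter peak in any list.

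**Figure D1:**
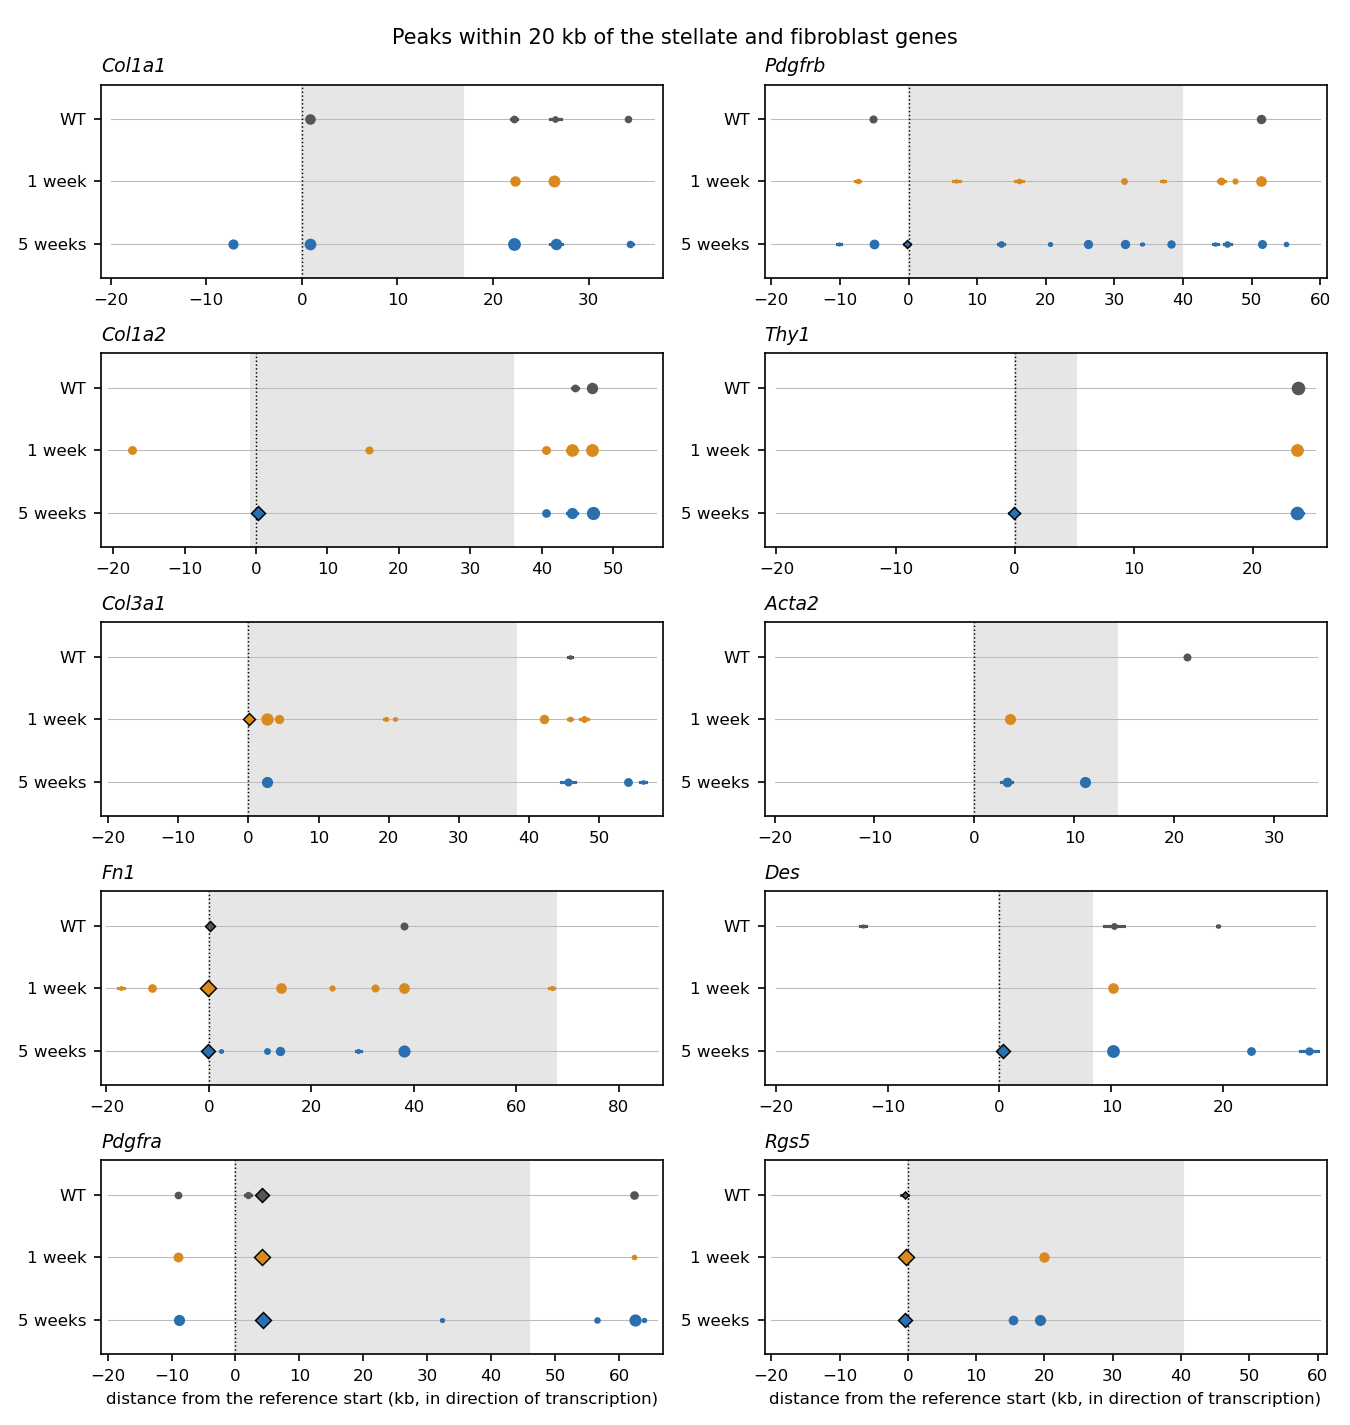
Peaks of the 3 lists at each locus. The x axis is the distance from the reference start of the gene in kb, in the direction of transcription, with the gene body shaded, bars for the extent of peaks, diamonds for peaks in the gene's own promoter window and circles for the others, larger where the peak ranked higher in its own list. Fn1, Pdgfra and Rgs5 have a diamond in all 3 lists, and the Pdgfrb locus goes from 2 peaks in WT to 13 at 5 weeks.

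The promoter peaks were weak. The values given for a peak are its fold over the local background, its -log10 q and the percentile of that -log10 q within its own list, with 100 for the strongest. Over all genes with a promoter peak, the median percentile of the strongest was 85.1 (WT), 87.7 (1 week) and 89.7 (5 weeks). Every promoter peak of these genes lay below that median of its list, from 8.68 to 53.6 in WT, from 42.0 to 82.5 at 1 week and from 14.5 to 79.5 at 5 weeks.

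**Figure D2:**
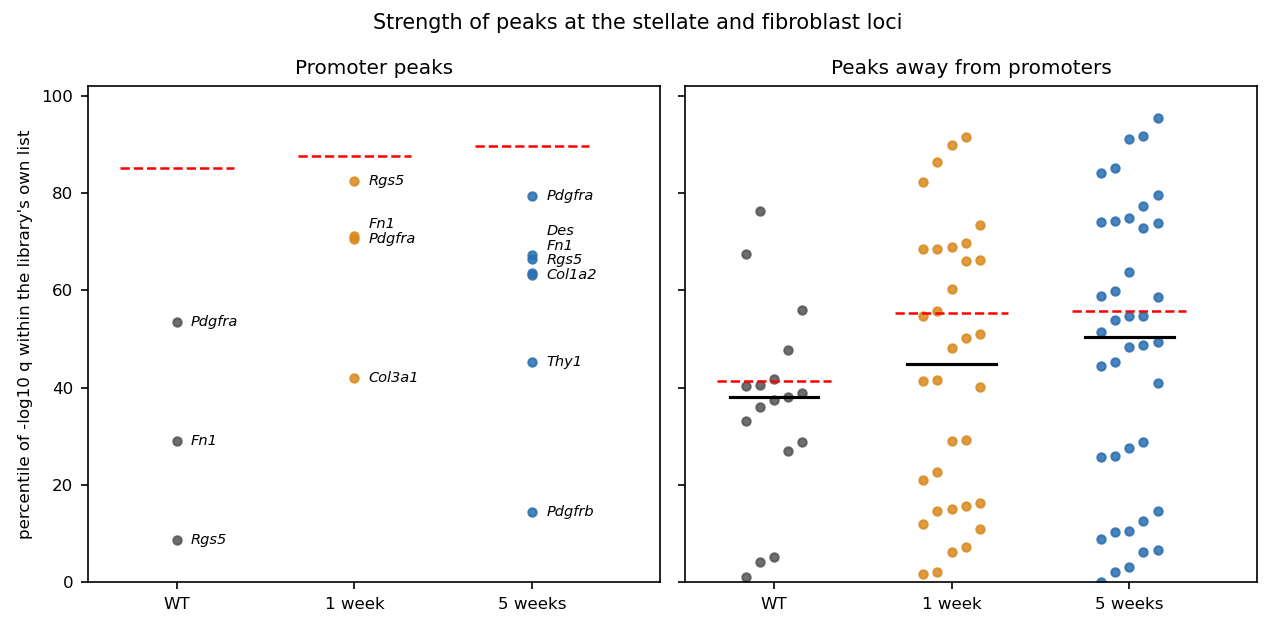
Percentile of the -log10 q within the list of each library (y axis) for promoter peaks (left, named by gene) and for peaks away from promoters (right). The dashed red line is the median over all protein-coding genes or loci and the black line the median of the stellate and fibroblast loci, and all promoter points lie under the red line. Gene names are set apart where points are close.

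Among the matrix genes, the type I collagen genes differed in where their peaks lay. Col1a1 (ENSMUSG00000001506, chromosome 11, 94797538 to 94814356, plus strand) had no promoter peak but a peak in an intron, 0.871 kb from the start, in WT with a fold of 3.76, a -log10 q of 6.23 and a percentile of 67.4. The same site had a fold of 3.27, a -log10 q of 7.40 and a percentile of 79.6 at 5 weeks, and no peak at 1 week. This was the strongest peak of the Col1a1 locus in WT. A site 22.2 kb from the start, beyond the 3′ end of the gene, was in all 3 lists, with a fold of 2.71 (WT), 2.65 (1 week) and 3.73 (5 weeks), where it was the strongest of the locus (-log10 q 14.2, percentile 91.2). The strongest at 1 week was a site 26.4 kb from the start with a -log10 q of 4.58 and a percentile of 82.3. A site at the neighbouring Sgca, a muscle sarcoglycan gene, was called in WT (-log10 q 2.62, percentile 36.0) and at 5 weeks (-log10 q 1.87, percentile 36.1), and only the wider 5 week peak reached into the Sgca promoter window.

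Col1a2 (ENSMUSG00000029661, chromosome 6, 4454814 to 4491543, plus strand), whose product pairs with that of Col1a1, had a promoter peak at 5 weeks alone, 288 bp wide over the third annotated start at 4455697. Its fold was 2.51, its -log10 q 3.40 and its percentile 63.2. The region 47.1 kb from the start, printed above, was the strongest of the locus in each list. It had a -log10 q of 8.56 (WT), 7.92 (1 week) and 19.3 (5 weeks). Its fold was 4.44 (WT), 3.43 (1 week) and 4.58 (5 weeks). The fold at 5 weeks was thus close to that in WT, while the q was further apart. A companion site 44.3 kb from the start was also in all 3 lists, with percentiles of 39.0, 89.8 and 74.8 in the order WT, 1 week and 5 weeks. In the same order its fold was 2.88, 3.08 and 2.70. Its rank from the top of the list was 37147, 15408 and 38260, so it stood no higher at 5 weeks than in WT.

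Col3a1 (ENSMUSG00000026043, chromosome 1, 45368383 to 45406551, plus strand), which encodes the collagen of reticular fibres, had 1 peak (WT), 8 (1 week) and 4 (5 weeks). The WT peak lay beyond the gene and was among the weakest of its list (percentile 4.19). The promoter peak at 1 week was 200 bp wide with a fold of 2.36, a -log10 q of 1.88 and a percentile of 42.0. The strongest site of this locus lay in an intron 2.71 kb from the start at 1 week (fold 3.26, -log10 q 5.68, percentile 86.4) and was also called at 5 weeks (fold 2.92, -log10 q 5.61, percentile 74.2), but not in WT.

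Fn1 (ENSMUSG00000026193, chromosome 1, 71632094 to 71699774, minus strand) encodes fibronectin, which links cells to the matrix. Its promoter peak was 358 bp wide in WT, 1326 bp at 1 week and 1386 bp at 5 weeks. The fold was 2.93 (WT), 2.6 (1 week) and 2.49 (5 weeks), and the -log10 q was 2.26, 3.04 and 3.86. The peak was thus narrowest in WT and widest at 5 weeks, while its fold was highest in WT. The annotated start of Apol7d lies within the same peak, so signal of both promoters cannot be told apart. The strongest site away from the Fn1 promoter was the same in each list, in an intron about 38.0 kb from the start, with a fold of 3.17 (WT), 2.49 (1 week) and 3.45 (5 weeks), and a -log10 q of 2.91, 2.93 and 9.39.

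Of the PDGF receptor genes, Pdgfra (ENSMUSG00000029231, chromosome 5, 75548316 to 75594229, plus strand), a marker of fibroblasts and mesenchymal progenitors, had no peak over its first annotated start and a peak at the second start, 75552191, in all 3 lists. That peak was 490 bp wide in WT, with fold 3.28 and -log10 q 4.09. At 1 week it was 1190 bp wide, with fold 2.71 and -log10 q 2.98. At 5 weeks it was 1605 bp wide, with fold 2.87 and -log10 q 7.36, the highest q of any promoter peak of the 10 genes. A site 62.4 kb from the start, beyond the gene, was the strongest site away from the promoter in WT (fold 3.35, percentile 47.8) and at 5 weeks (fold 3.63, percentile 85.2), but was near the bottom of the 1 week list (fold 2.21, percentile 15.1). At 1 week the strongest such site was at -9.0 kb, upstream of the start, with a -log10 q of 2.41 and a percentile of 60.2.

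Pdgfrb (ENSMUSG00000024620, chromosome 18, 61204804 to 61244715, plus strand), the receptor of pericytes and stellate cells, had 2 peaks (WT), 8 (1 week) and 13 (5 weeks). At 1 week Col3a1 and Fn1 had 8 too, and at 5 weeks none of the other loci had more than 6. Most peaks of the Pdgfrb locus were weak, with a median percentile of 48.8 (WT), 18.3 (1 week) and 25.9 (5 weeks). The promoter peak, called at 5 weeks alone, had a fold of 1.76, a -log10 q of 1.40 and a percentile of 14.5. A site 51.4 kb from the start was in all 3 lists and was the strongest in WT (fold 3.41, -log10 q 4.37) and at 1 week (fold 2.62, -log10 q 2.87). The strongest at 5 weeks lay at -5.09 kb, upstream of the start, with fold 2.1 and -log10 q 3.04, and a WT peak overlapped it.

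Thy1 (ENSMUSG00000032011, chromosome 9, 43851467 to 43856662, plus strand), a surface glycoprotein of fibroblasts, neurons and T cells, had no peak away from promoters in any list. Its promoter peak at 5 weeks was 807 bp wide with a fold of 2.21, a -log10 q of 2.17 and a percentile of 45.2. The strongest peak of this locus in each list belonged to another gene, in the promoter window of Usp2, a deubiquitinase gene, 23.8 kb from the Thy1 start. It had a percentile of 99.2 (WT), 91.0 (1 week) and 99.6 (5 weeks), the highest of the 10 loci in WT and at 5 weeks, while at 1 week the Col1a2 site at 47.1 kb was above it at 91.6.

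Among the contractile and pericyte genes, Rgs5 (ENSMUSG00000026678, chromosome 1, 171585632 to 171625944, plus strand), a regulator of G protein signalling and a marker of pericytes, was called at its promoter in all 3 lists. In WT the peak was close to the bottom of the list, with a fold of 2.57, a -log10 q of 1.53 and a percentile of 8.68. At 1 week it had a fold of 3.13, a -log10 q of 4.61 and a percentile of 82.5, the highest percentile of a promoter peak of the 10 genes in any list. At 5 weeks it had a fold of 2.51, a -log10 q of 3.45 and a percentile of 63.6. The only other sites of this locus lay in introns of Rgs5, and the strongest, 19.9 kb from the start, had a -log10 q of 2.69 at 1 week and was called at 5 weeks too with a -log10 q of 5.24. WT had none.

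Des (ENSMUSG00000026208, chromosome 1, 75356904 to 75365154, plus strand) encodes desmin, the intermediate filament of muscle and stellate cells. Its promoter peak was called at 5 weeks alone, with a width of 608 bp, a fold of 2.65, a -log10 q of 4.0 and a percentile of 67.2. The printed region 10.2 kb from the start was in all 3 lists and was the strongest of the locus in each. It had a fold of 2.73 (WT), 2.70 (1 week) and 4.33 (5 weeks), and a -log10 q of 2.25, 2.85 and 14.7. It was 1782 bp wide in WT, 205 bp at 1 week and 333 bp at 5 weeks, so the same site stood out at 5 weeks as a narrow, stronger peak.

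Acta2 (ENSMUSG00000035783, chromosome 19, 34315580 to 34329826, minus strand) encodes the smooth muscle actin that marks myofibroblasts and mural cells. It had no promoter peak. The WT peak of this locus lay in an exon of the neighbouring Stambpl1, with a -log10 q of 2.93. At 1 week the only peak was in an Acta2 intron 3.61 kb from the start, with a fold of 2.80, a -log10 q of 3.23 and a percentile of 73.4. This site was also called at 5 weeks with fold 2.39 and -log10 q 2.94, beside a stronger site 11.1 kb from the start with fold 2.93 and -log10 q 5.50.

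Away from promoters, the loci held 17 peaks (WT), 34 (1 week) and 40 (5 weeks). Of these, 11 (WT), 18 (1 week) and 18 (5 weeks) lay between genes, and 5, 15 and 17 lay in introns. That is 2.38 peaks per 100 kb in WT, 4.77 at 1 week and 5.61 at 5 weeks, beside 2.59, 3.82 and 4.87 over all protein-coding loci pooled. The counts of the 10 loci thus moved in the direction of the whole lists. The median percentile of these peaks was 38.2 (WT), 44.9 (1 week) and 50.5 (5 weeks), below the 41.3, 55.3 and 55.8 of all loci. Their median fold was 2.88 (WT), 2.33 (1 week) and 2.21 (5 weeks), beside 3.0, 2.45 and 2.31 over all loci.

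**Figure D3:**
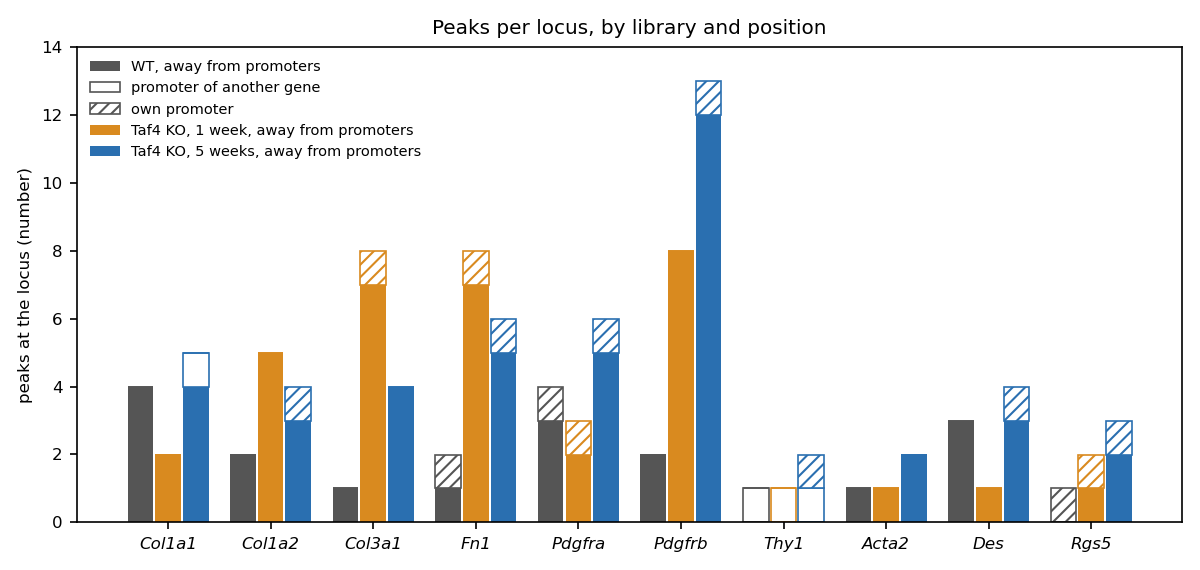
Number of peaks at each locus (y axis) in WT, Taf4 KO at 1 week and Taf4 KO at 5 weeks, with filled bars for peaks away from promoters, open bars for the promoter of another gene and hatched bars for the gene's own promoter. Pdgfrb, Col3a1 and Fn1 have the most peaks at 1 week, 8 each, while Col1a1, Pdgfra and Des have fewer at 1 week than in WT.

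The 1 week list differed from the others by base composition, which is given here as a measured fact whose part in the results was not tested. Genes were put in 5 groups of rising GC content, taken over 1 Mb centred on the start. In the lowest group, peaks were called at 33.7% (WT), 46.9% (1 week) and 45.3% (5 weeks) of promoters, against 71.0%, 51.2% and 75.7% in the highest. Peaks away from promoters at 1 week went from 6.38 per 100 kb in the lowest group to 1.99 in the highest. Col1a2 (39.9% GC), Col3a1 (38.2%) and Acta2 (40.3%) are in the lowest group, Fn1 (41.5%) and Rgs5 (41.8%) in the next, and Col1a1 (49.0%), Pdgfrb (48.8%), Thy1 (48.7%) and Des (47.5%) in the highest. From WT to 1 week, peaks away from promoters went from 1 to 7 at Col3a1, from 1 to 7 at Fn1, from 2 to 5 at Col1a2 and from 0 to 1 at Rgs5, and stayed at 1 at Acta2. Over the same step they went from 3 to 2 at Pdgfra (44.8% GC, the middle group), from 4 to 2 at Col1a1 and from 3 to 1 at Des, and stayed at 0 at Thy1. Pdgfrb, with 2 and 8, went the other way from Col1a1 and Des. The gene whose promoter was called at 1 week and not in WT, Col3a1, is in the lowest group, where 21.0% of genes without a WT promoter peak gained one, against 3.63% in the highest. At 5 weeks that share differed little with GC, with 18.1% in the lowest group and 20.8% in the highest.

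Overlapping peaks of the lists were merged into 71 regions. Of these, 14 were in all 3 lists, 4 in WT alone, 18 at 1 week alone and 25 at 5 weeks alone. A further 7 were shared by the Taf4 KO lists and 3 by WT and 5 weeks, and none by WT and 1 week alone. Both Taf4 KO lists overlapped 14 of the 21 WT peaks (66.7%), near the 60.6% of WT peaks at all protein-coding loci. The 1 week list had 46.2% of its 39 peaks, and the 5 week list 51.0% of its 49, in neither other list, beside 33.9% and 35.7% over all loci. The 4 regions of WT alone were weak, with percentiles from 1.13 to 40.6, and lay at Acta2, Des and Pdgfra.

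The 14 shared regions were 3 own promoters, 10 sites away from promoters and the Usp2 promoter. Their median percentile was 38.6 (WT), 70.2 (1 week) and 78.4 (5 weeks), beside 69.3, 86.3 and 87.5 for the 28995 WT peaks of all loci found in both other lists. The percentile was higher than in WT for 12 of 14 at 1 week and 13 of 14 at 5 weeks, where 77.9% and 89.7% of the shared peaks of all loci were higher. The Taf4 KO lists hold more weak peaks, so percentiles in them run higher. By rank from the top of the list, 4 of 14 were nearer the top at 1 week than in WT and 7 of 14 at 5 weeks, beside 43.4% and 44.3% over all loci. The fold was higher than in WT for 3 of 14 at 1 week and 6 of 14 at 5 weeks, beside 31.2% and 36.5%. The Des region went from rank 43370 in WT to 47152 at 1 week and 12430 at 5 weeks, and the Col1a1 site at 22.2 kb from 37665 to 50721 and 13420. The Rgs5 promoter went from 55614 to 26310 and 55227, so its place from the top was nearly the same in WT and at 5 weeks.

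**Figure D4:**
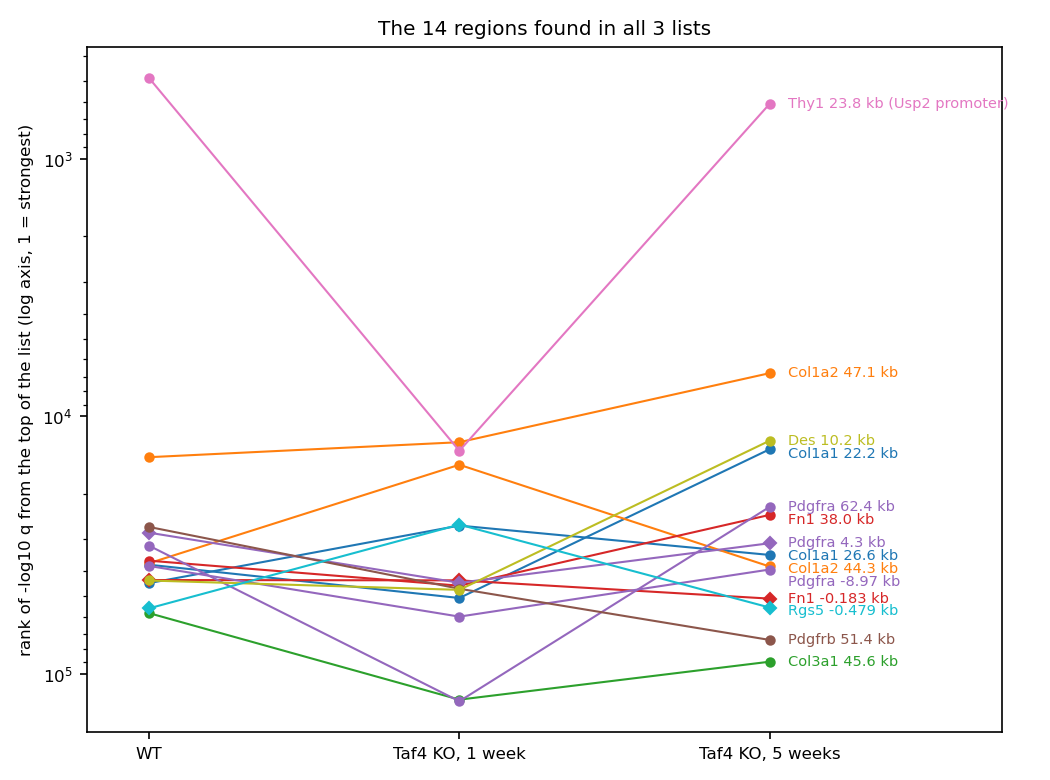
Rank of the -log10 q from the top of each list (y axis, log scale, 1 = strongest) for the 14 regions found in WT, Taf4 KO at 1 week and Taf4 KO at 5 weeks. Each line is a region, coloured by gene and labelled with its distance from the start, with diamonds for own promoters; 7 of 14 lie nearer the top at 5 weeks than in WT.

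The promoter counts were compared under stricter or levelled lists. A limit of 3 on the -log10 q left Pdgfra in WT (53.8% of all genes), Fn1 and Rgs5 at 1 week (44.9%), and Col1a2, Fn1, Pdgfra, Des and Rgs5 at 5 weeks (59.0%). With a limit of 5, none was left in WT (48.6%) or at 1 week (33.5%) and Pdgfra alone at 5 weeks (54.4%). With lists cut to an equal number of 60898 peaks, 3 genes were called in WT (59.0%), 3 at 1 week (48.8%) and 5 at 5 weeks (59.0%). When peaks were scaled to the WT background floor, 3 genes were called in each list, namely Fn1, Pdgfra and Rgs5 in WT and at 1 week (49.1%), and Fn1, Pdgfra and Des at 5 weeks (57.1%). The higher promoter count at 5 weeks therefore did not remain after scaling, though it did in lists of equal number. Scaling left 62934 peaks at 1 week and 51890 at 5 weeks, beside 60898 in WT. The scaled 5 week list was thus shorter than the WT list. Of the 4 genes gained at 5 weeks only Des was called after scaling. The counts away from promoters turned direction in lists of equal number, with 17 (WT), 12 (1 week) and 13 (5 weeks), and after scaling, with 17, 12 and 12. They did not turn under the limits on q, with 5, 5 and 14 at a limit of 3 and 2, 3 and 12 at a limit of 5. Counts away from promoters over all loci are not given for these settings. Whether all loci turned in the same way is therefore not known.

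**Figure D5:**
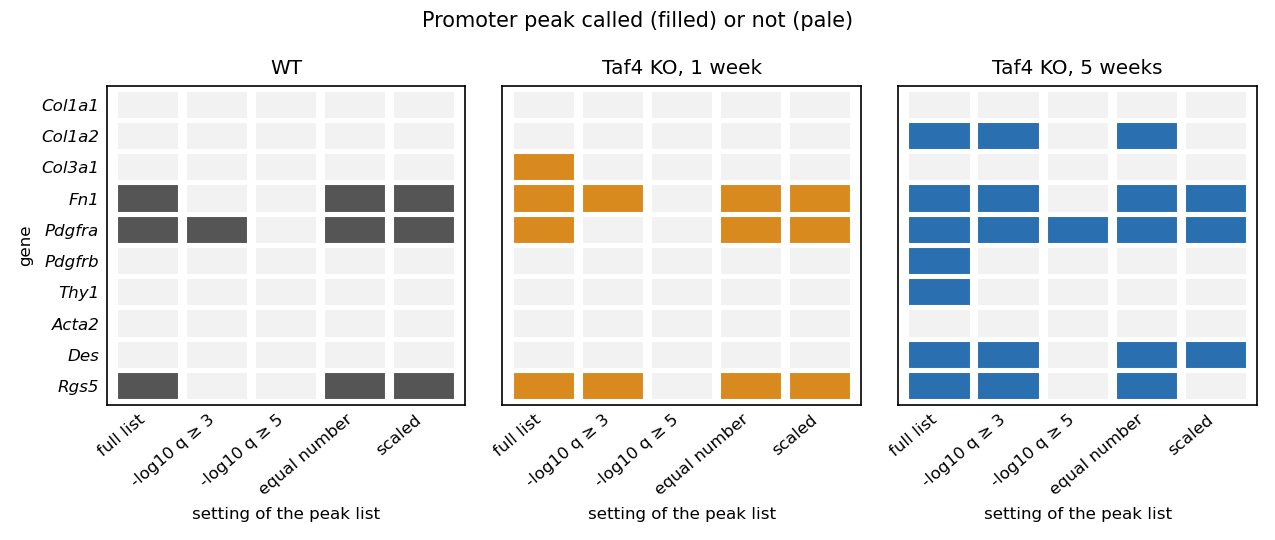
Promoter peak called (filled) or not called (pale) for each gene (y axis) in the full list, with a limit of 3 or 5 on the -log10 q, in lists of equal number, and in lists scaled to the WT background (x axis), for WT, Taf4 KO at 1 week and Taf4 KO at 5 weeks. Scaled lists have 3 filled genes each.

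The other mesenchymal genes 31 in all, also had the largest count at 5 weeks. A promoter peak was called for 10 (WT), 12 (1 week) and 20 (5 weeks). The counts were 10, 10 and 10 after scaling, and 10, 10 and 12 in lists of equal number. Over all protein-coding genes the shares were 59.0%, 55.9% and 65.6% in the full lists. They were 59.0%, 49.1% and 57.1% after scaling, and 59.0%, 48.8% and 59.0% in lists of equal number. Of 14 matrix genes, 1 was called in WT, 3 at 1 week and 9 at 5 weeks. These counts were 1, 2 and 0 after scaling, and 1, 2 and 2 in lists of equal number. Of 4 PDGF ligand genes, Pdgfa and Pdgfd were called in every list. Of 7 contractile and pericyte genes, 2, 2 and 3 were called, and 2, 1 and 3 after scaling. Of 6 regulators, 5, 5 and 6 were called, among them Srf, the factor that binds CArG boxes, and Smad3, which carries TGF-beta signals, in all lists. After scaling, and in lists of equal number, 5 regulators were called in each list.

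Of the genes whose call differed between lists, Twist1, a mesenchymal transcription factor, had a -log10 q of 2.77 at 1 week and 7.31 at 5 weeks. Vim, which encodes vimentin, had 4.17 and 6.47. Both were without a WT peak, and both were called in the Taf4 KO lists after scaling too. Tagln, a smooth muscle gene, had 2.50 in WT and 4.90 at 5 weeks and no peak at 1 week. The fibrillin gene Fbn1 had 2.47 at 1 week and 3.19 at 5 weeks, and the decorin gene Dcn 2.52 and 1.37. Col5a1 (3.13) and the collagen crosslinking enzyme gene Lox (2.82) were called at 5 weeks alone. Tcf21, a factor of fibroblast precursors, had 2.44 in WT and 1.39 at 5 weeks.

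Marker genes of the other cells of such a preparation were read in the same way. Of 7 islet endocrine markers, 5 (WT), 7 (1 week) and 7 (5 weeks) had a promoter peak. Ins1, Ins2, Iapp, Pdx1 and Nkx6-1 were called in each list, so the defining beta cell markers of the labelled tissue were present. Ins1 was at percentiles of 98, 97.1 and 99.9, and Ins2 lower at 63.5, 71.4 and 82.4. In WT, Iapp was at 69.9, Nkx6-1 at 75.9 and Pdx1 at 81.1, below the median over all genes with a promoter peak. The WT list lacked Gcg and Sst, and after scaling 5, 6 and 6 of these markers were called. Of 6 endothelial markers, 2, 3 and 5 were called, all at a -log10 q under 5, and 2, 1 and 1 after scaling. Of 6 immune markers, 0, 2 and 2 were called, and none after scaling. Of 5 acinar markers, 0, 0 and 1 were called, and none after scaling, and of 5 duct markers 2, 4 and 3, and 2 in each list after scaling. The counts of all 6 marker groups, the stellate and fibroblast genes included, were thus higher in the full 5 week list than in WT. The share over all protein-coding genes was higher too, with 65.6% at 5 weeks and 59.0% in WT. After scaling the endocrine count was still higher at 5 weeks than in WT and the others were not, with 57.1% of all genes called at 5 weeks. In lists of equal number the endocrine count and the stellate and fibroblast count were higher at 5 weeks than in WT. Whether the number of these cells differed between the preparations was not tested.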

How the data were processed

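The authors aligned reads to mm9 with Bowtie 1.0.0, keeping unique alignments, and called broad peaks with MACS2 2.1.1 in each library on its own, after base calling with bcl2fastq 2.17.1.14. No control library, duplicate removal or insertion shift is stated. The deposited lists give for each peak a fold over background (a ratio), a -log10 p-value and a -log10 q-value, averaged over the peak. The whole-number score in the deposited lists repeats the -log10 q on another scale and was left aside. The lowest -log10 q was 1.02, 1.01 and 1.01 in WT, 1 week and 5 weeks.

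The analysis kept autosomes 1 to 19 and both sex chromosomes, leaving out 2 mitochondrial peaks per list. Genes came from GENCODE for NCBIM37, the build of mm9. Gene bodies with 20 kb flanks were intersected with peaks at 1 bp or more. Promoter windows had 46015 starts. Peaks away from promoters touch no promoter window of a protein-coding gene and were placed by their midpoint. Distances run from the reference start to the peak's midpoint. For scaling, the pileup and background recovered from fold and p, with the caller's pseudocount of 1, were divided by the ratio of background floors (first percentile) to WT, 1.76 and 2.57, and peaks were kept if the recomputed -log10 p reached the lowest of the WT list. In the 5 week list 5 peaks had no solution. Python 3.11.15, numpy 2.4.6, pandas 2.3.3, scipy 1.17.1 and bedtools 2.31.1 were used. The recovery and the overlaps were checked on simulated data. The simulated fold and p came from a pileup and a background by the formula that the recovery inverts. Values averaged over a peak, as in the deposited lists, were not simulated.

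The genes and lists were chosen with earlier results of these data known. Named are all 10 genes with their strongest promoter and distal peak per list, up to 8 of 31 other mesenchymal genes whose call differed, by -log10 q, and neighbouring genes with a called promoter in a window. Further sites named beside these were chosen after their values were seen.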

Additional observations from a re-analysis of the deposited data

Results flagged for a closer look

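For 3 of the 14 regions found in all lists, the percentile moved in opposite directions from WT to 1 week and from WT to 5 weeks, as it did for 17.4% of the shared peaks of all loci. These differences were not tested, as there was 1 library per group. Percentiles run higher in the longer Taf4 KO lists, so the rank from the top and the fold are given too. The site 62.4 kb from the Pdgfra start had percentiles of 47.8 (WT), 15.1 (1 week) and 85.2 (5 weeks). The change from WT at 5 weeks thus exceeded that at 1 week by 70.1 points. Its rank (31786, 127673 and 22465) and fold (3.35, 2.21 and 3.63) moved in opposite directions too. The site 51.4 kb from the Pdgfrb start had 55.9, 68.9 and 51.4, a difference between the changes of -17.6 points. Its rank was 26872, 46692 and 73775 and its fold 3.41, 2.62 and 2.23, so by both it was weaker than in WT at both times. The Usp2 promoter, 23.8 kb from the Thy1 start, had 99.2, 91.0 and 99.6, a difference of 8.64 points. Its rank was 486, 13600 and 612 and its fold 6.40, 3.74 and 6.13, so these did not move in opposite directions either.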

How the results depend on the processing

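No paired analysis was possible because each group had 1 library and no test was made. Of 39 alternative values, 16 were within 1.5 times the reported count and 23 were not. The number of genes with a promoter peak went from 3 in WT to 1 with a -log10 q limit of 3 and 0 with a limit of 5, from 4 at 1 week to 2 and 0, and from 7 at 5 weeks to 1 with a limit of 5 and 3 after scaling. Promoter windows of 500 bp on each side, or 2000 bp upstream to 500 bp downstream, gave the same counts of 3, 4 and 7. The shares over all protein-coding genes are not given for these windows. Peaks away from promoters went from 17 in WT to 5 with a -log10 q limit of 3, 2 with a limit of 5 and 5 with flanks of 5 kb. At 1 week they went from 34 to 5, 3 and 19, and to 12 with lists of equal number or scaled lists. At 5 weeks they went from 40 to 14, 12 and 23, and to 13 with lists of equal number and 12 with scaled lists. WT peaks found in both Taf4 KO lists went from 14 of 21 to 2 of 7 and 2 of 3 under the q limits. They went to 5 of 8 with flanks of 5 kb and 7 of 21 with a reciprocal overlap of 50%. With lists of equal number they were 11 of 21, and with scaled lists 10 of 21. The share over all loci is not given for these settings, so whether it moved in the same way is not known. Fewer peaks enter under the q limits and the shorter flanks. Peak lists give no read totals, so how far depth sets these counts cannot be told apart from genotype.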
